A study of Drosophila melanogaster with 48 samples.

Results

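Integrins, laminins, collagen IV and matrix metalloproteases hold the epithelium of the Drosophila melanogaster wing to its basement membrane, and to the opposite wing surface, or cut that membrane. The genes described here are mys, mew, if, wb, LanA, LanB1, LanB2, vkg, Mmp1 and Mmp2. They were chosen by symbol, and every probe set that the array annotation assigns to one of them was read in all groups. Of the 10 genes, 9 had a probe set, with 14 probe sets in all, among the 11982 genes that the 18769 tested probe sets name. Mmp1 was matched to no probe set and is not analysed here.

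Affymetrix Drosophila Genome 2.0 arrays, 48 in all, measured RNA from discs and wings in 12 groups of 4 biological replicates, to ask which genes respond in the wing to Ultrabithorax (Ubx), the Hox protein that makes a haltere out of a wing. The Ubx line was w; UAS-UbxIa / + ; nabGal4NP3537 / Tub-Gal80ts, and the control line was w; UAS-eGFP / + ; nabGal4NP3537 / Tub-Gal80ts. Both lines therefore carried the Gal4 driver in nab, a temperature-sensitive Gal80 repressor and the w mutation, and they differed in the UAS transgene. The lines were compared in larvae, prepupae and pupae at 29 °C, 16 h after a shift that switches the transgene on, and at 19 °C, where it stays off. At 29 °C prepupae were taken 6 h and pupae 16 h after puparium formation, against 12.5 h and 33.5 h at 19 °C, while wandering larvae were staged by gut colour at both temperatures. Each sample pooled about 15 to 20 animals. The tissue was dissected whole, so cells outside the reach of the driver are included, and fewer cells of a type and less RNA per cell cannot be told apart.

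Integrins are receptors made of an alpha and a beta chain. In the wing the beta chain is encoded by mys, and its partners are the alpha chain of mew, which binds laminins, and that of if, which binds ligands carrying an RGD motif. The alpha chain of mew is known from the dorsal and that of if from the ventral epithelium, and loss of either detaches the surfaces and blisters the wing. Laminins are trimers in which one alpha chain, from LanA or wb, joins the beta chain of LanB1 and the gamma chain of LanB2. Collagen IV, a trimer of the products of vkg and Col4a1, forms the second network of the basement membrane and reaches many tissues from fat body and haemocytes. Mmp2 is a membrane-anchored metalloprotease that can cut basement membrane, and matrix is removed while the disc everts and flattens into a wing.

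All values are log2 values as the authors normalised them, and differences are the first group named minus the second on that scale, so that 1 unit is 2-fold. Where a gene has several probe sets, the one with the highest mean over all arrays stands for it. For the 9 genes the others are named where they differ, and for all other genes named here they were not compared. Differences carry the standard error (SE) of a limma model of all 48 arrays, and a call required a Benjamini-Hochberg adjusted p under 0.05 over all tested probe sets. Array medians ran from 4.19 to 4.78, and the lowest correlation between replicate arrays, across probe sets, was 0.995. Every one of the 9 genes had group means above its arrays' medians in all 12 groups. Among the larvae 1 control array stands apart: eGFP replicate 3 at 29 °C had a summed linear level of 4 fat body markers of 6328, against 135 to 251 on the other 3 arrays of its group. In pupae that sum was high in every group. It was 10722 to 19210 in Ubx and 10495 to 17299 in eGFP pupae at 29 °C, and 2567 to 9720 and 7402 to 11277 at 19 °C. In prepupae it ran from 180 to 922. Of 8 wing epithelium markers, 6 had a probe set. None of the 6 fell below the array median in larvae or pupae, and zfh2 did in all prepupal groups.

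With the transgenes on, the wing of the Ubx line had less if and wb at every stage, more LanA at the later stages, and more Mmp2 in larvae and pupae. As given below, the pupal Mmp2 call was lost without some single arrays and after centring. The larval wb call was lost with its probe sets averaged. In larvae 3 of the 9 genes were called, if and wb lower and Mmp2 higher, where 2.77% of all probe sets were called. In prepupae 4 were called, if and wb lower and LanA and LanB1 higher, where 14.2% of all probe sets were called. In pupae if and wb were again lower and LanA and Mmp2 higher, 4 of 9, where 8.89% of all probe sets were called. The median difference of the 9 genes was 0.04, 0.02 and 0.05 in larvae, prepupae and pupae, and that of all probe sets was -0.00, -0.01 and 0.02. Between the same lines at 19 °C none of the 9 was called at any stage in limma through the probe set that stands for it. There 1.41%, 3.67% and 1.99% of all probe sets were called in larvae, prepupae and pupae. A dim wb probe set that does not stand for the gene was called lower in Ubx prepupae at 19 °C. As given below, that probe set was also called lower in Ubx prepupae with the transgenes on. At an unadjusted p under 0.05 there was 1 gene at each of the 3 stages at 19 °C. The share of all probe sets at that p was not counted.

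**Figure D1:**
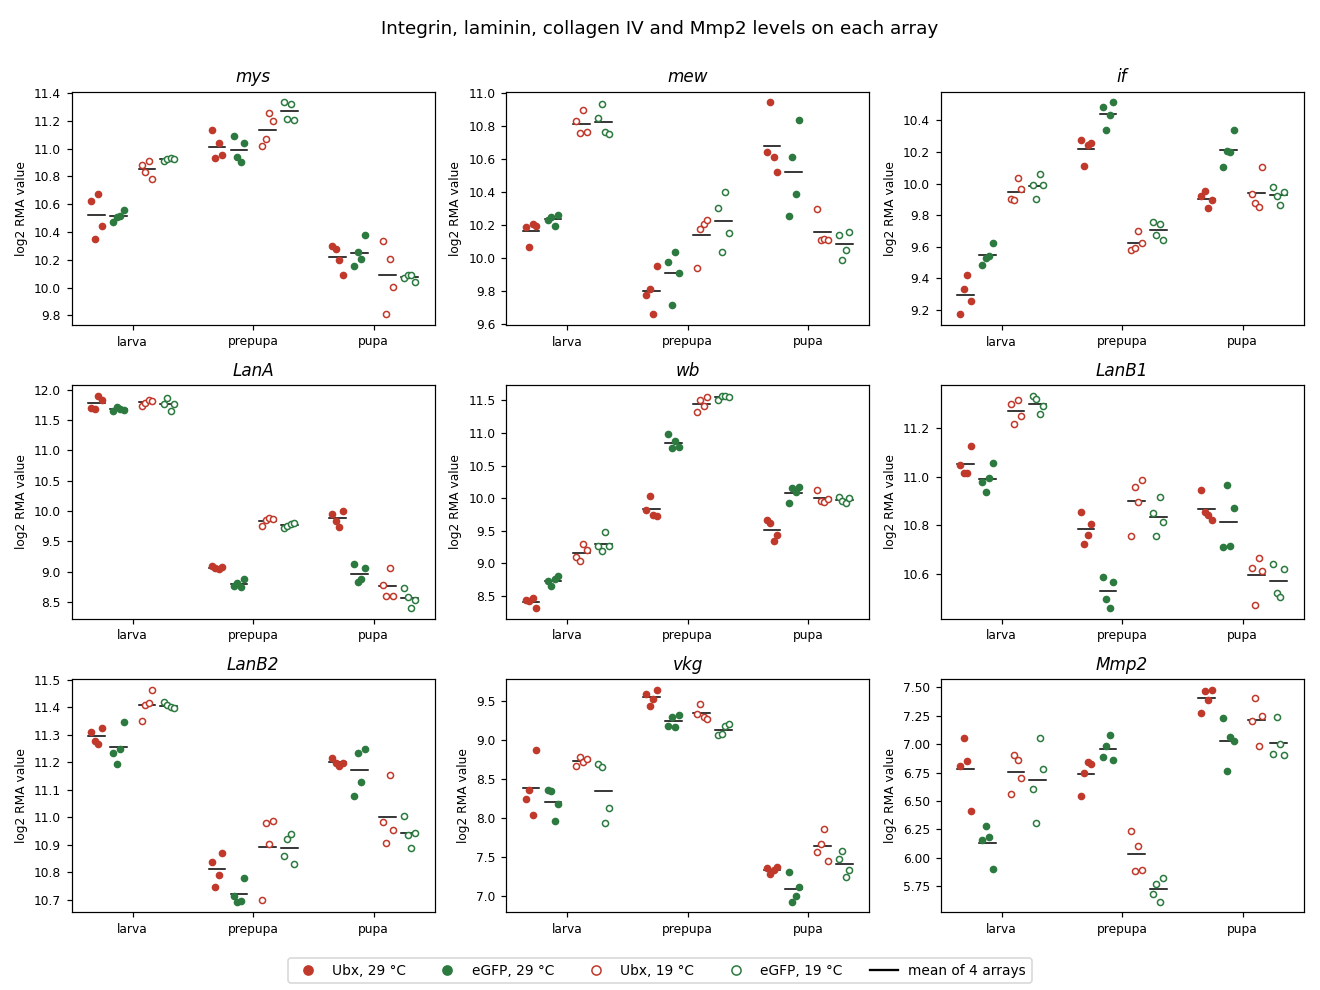
Log2 RMA values of the 9 genes on each of the 48 arrays, by stage along the horizontal axis, with Ubx in red, eGFP in green, 29 °C filled and 19 °C open, and a bar at the mean of 4 arrays. The wb points of Ubx prepupae at 29 °C lie between 9.72 and 10.04, below all eGFP prepupae, and the LanA points of Ubx pupae at 29 °C lie between 9.73 and 10.00, above all other pupae. The vertical axis differs between genes.

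Of the 3 integrin chain genes mys, mew and if, if was called lower in the Ubx line at each stage at 29 °C. In larvae at 29 °C if read 9.17, 9.33, 9.42 and 9.26 on the Ubx arrays, against 9.48, 9.53, 9.54 and 9.62 on the eGFP arrays. All 4 Ubx arrays lay below all 4 eGFP arrays, and the difference was -0.25 (SE 0.05, limma adjusted p = 0.0031). In prepupae at 29 °C the Ubx arrays read 10.27, 10.11, 10.24 and 10.25, against 10.48, 10.34, 10.43 and 10.51 on the eGFP arrays. The groups again did not overlap, at a difference of -0.22 (SE 0.05, adjusted p = 0.0033). In pupae at 29 °C if read 9.92, 9.95, 9.85 and 9.89 in Ubx wings, against 10.10, 10.21, 10.20 and 10.34 in eGFP wings, a difference of -0.31 (SE 0.05, adjusted p = 6.6e-05). At each stage the fall at 29 °C kept its call in limma whichever array of the pair of groups was left out.

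At 19 °C the if difference between the lines was -0.04, -0.08 and 0.01 in larvae, prepupae and pupae, and the groups overlapped each time. The test of the line difference at 29 °C against that at 19 °C, the interaction, passed for if in pupae alone, at -0.32 (SE 0.08, adjusted p = 0.0089), and this call was lost when the pupal arrays were fitted alone (adjusted p = 0.071). In larvae the interaction was -0.21 (SE 0.08, adjusted p = 0.50) and in prepupae -0.14 (SE 0.08, adjusted p = 0.35). No change of the if difference between stages was called: it was 0.03 between prepupae and larvae (95% interval -0.13 to 0.19) and -0.09 between pupae and prepupae (95% interval -0.24 to 0.07).

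The shared beta chain gene mys gave no call between the lines. In pupae at 29 °C mys read 10.30, 10.28, 10.20 and 10.09 in Ubx wings, against 10.16, 10.26, 10.20 and 10.37 in eGFP wings. Its difference at 29 °C was 0.01 in larvae, 0.02 in prepupae and -0.03 in pupae, with 95% intervals inside -0.18 to 0.17, and the groups overlapped at each stage. At 19 °C it ran from -0.13 in prepupae to 0.02 in pupae. The second mys probe set made the same calls, and since the one read here carries the suffix for probes that may match other transcripts, its level is the less specific of the pair.

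For mew, the laminin-binding alpha chain, the difference at 29 °C was -0.07 in larvae (95% interval -0.25 to 0.11), -0.11 in prepupae (95% interval -0.29 to 0.07) and 0.16 in pupae (95% interval -0.02 to 0.34). None was called, and Ubx and eGFP arrays overlapped at each stage through this probe set. The second mew probe set read 7.58, 7.74, 7.72 and 7.69 in Ubx prepupae at 29 °C, against 7.92, 7.82, 7.96 and 7.83 in eGFP prepupae. Those arrays did not overlap, and the difference of -0.20 was not called (SE 0.08, adjusted p = 0.093). In larvae and pupae its groups overlapped, at -0.05 and 0.16. Between pupae and prepupae the difference changed by 0.27 (SE 0.13, adjusted p = 0.20) through the first probe set and by 0.36 through the second, which was called (adjusted p = 0.036). Both changes had the same direction and fell on different sides of the threshold, and without eGFP replicate 4 of the pupae the first was called too (adjusted p = 0.045).

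**Figure D2:**
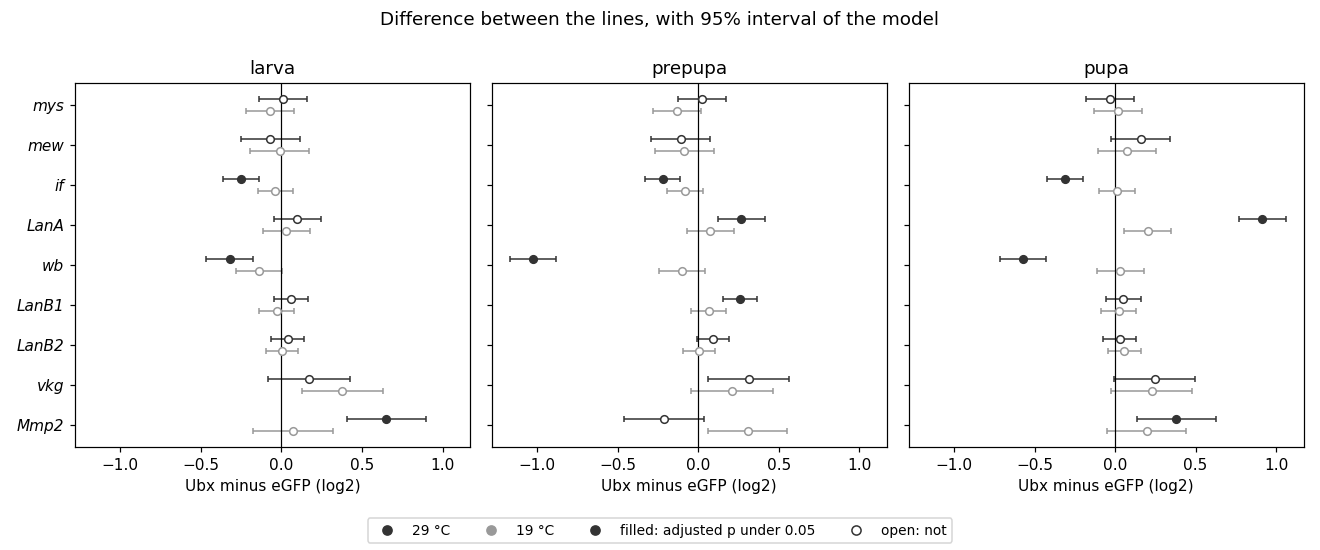
Ubx minus eGFP (log2) for the 9 genes at 3 stages, at 29 °C in black and at 19 °C in grey, with the 95% interval of the limma model. Filled points passed an adjusted p of 0.05. All filled points are black: if and wb lie left of 0 in each panel, Mmp2 lies right of it in larvae and pupae, and LanA reaches 0.91 in pupae.

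The laminin alpha chain genes differed in opposite directions in prepupae and pupae at 29 °C. The wing blister gene, wb, fell most. Its prepupal arrays at 29 °C read 9.82, 10.04, 9.74 and 9.72 in Ubx wings, against 10.98, 10.76, 10.88 and 10.79 in eGFP wings. Every Ubx value was below every eGFP value, and the difference was -1.03 (SE 0.07, adjusted p = 6.0e-15), a 2.04-fold lower level. In larvae at 29 °C the Ubx arrays read 8.44, 8.43, 8.46 and 8.31, against 8.72, 8.65, 8.75 and 8.80 on the eGFP arrays. These groups did not overlap either, at -0.32 (SE 0.07, adjusted p = 0.0038). In pupae at 29 °C wb read 9.66, 9.62, 9.34 and 9.43 in Ubx wings, against 9.92, 10.16, 10.09 and 10.17 in eGFP wings. That difference was -0.57 (SE 0.07, adjusted p = 8.3e-08), a 1.49-fold lower level without overlap.

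The difference of wb between the lines depended on temperature at the later stages. In prepupae at 19 °C wb read 11.32, 11.50, 11.42 and 11.55 in the Ubx line and 11.51, 11.56, 11.57 and 11.56 in the eGFP line, a difference of -0.10 (SE 0.07, adjusted p = 0.64). The interaction was -0.92 in prepupae (SE 0.10, adjusted p = 6.0e-09) and -0.60 in pupae (SE 0.10, adjusted p = 7.6e-05), and it was -0.18 in larvae (SE 0.10, adjusted p = 0.93). In prepupae wb was the 1 gene of the 9 with an interaction call, where 7.69% of all probe sets had one. In pupae 3 of the 9 had one, if, wb and LanA, where 3.36% of all probe sets did. In larvae none of the 9 had one in limma, where 0.442% of all probe sets did. There 2 of the 9 had an unadjusted p under 0.05, and the share of all probe sets at that p was not counted. The line difference of wb at 29 °C was larger in prepupae than in larvae by -0.70 (SE 0.10, adjusted p = 3.1e-06). It was smaller in pupae than in prepupae by 0.45 (SE 0.10, adjusted p = 0.0019).

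The other wb probe sets were dim, with group means from 3.44 to 5.07 and from 3.68 to 4.52, close to the array medians. One of them was called lower in Ubx prepupae both at 29 °C, by -0.26 (adjusted p = 0.0045), and at 19 °C, by -0.30 (adjusted p = 0.0025). With the 3 wb probe sets averaged, the larval fall was -0.12 (adjusted p = 0.32) and the change from prepupae to pupae 0.20 (adjusted p = 0.062), and neither was called.

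LanA, the other alpha chain gene, was higher in Ubx wings at the later stages. In pupae at 29 °C LanA read 9.96, 9.84, 9.73 and 10.00 in Ubx wings, against 9.12, 8.82, 8.89 and 9.06 in eGFP wings. The lowest Ubx value was above the highest eGFP value, and LanA rose by 0.91 (SE 0.07, adjusted p = 3.3e-13), or 1.88-fold. In prepupae at 29 °C the Ubx arrays read 9.10, 9.06, 9.05 and 9.08, against 8.76, 8.82, 8.75 and 8.88 on the eGFP arrays, a rise of 0.27 (SE 0.07, adjusted p = 0.0072) without overlap. In larvae at 29 °C the groups overlapped, at a difference of 0.10 (SE 0.07, adjusted p = 0.73).

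In pupae at 19 °C LanA read 8.79, 8.61, 9.06 and 8.60 in the Ubx line and 8.73, 8.58, 8.40 and 8.54 in the eGFP line, a difference of 0.20 (SE 0.07, adjusted p = 0.20). The pupal interaction was 0.71 (SE 0.10, adjusted p = 4.4e-06), and the prepupal one was 0.19 (SE 0.10, adjusted p = 0.31). The line difference at 29 °C grew by 0.64 from prepupae to pupae (SE 0.10, adjusted p = 1.3e-05) and by 0.81 from larvae to pupae (SE 0.10, adjusted p = 2.1e-07). LanA was the 1 gene of the 9 whose difference changed between larvae and pupae, where 2.67% of all probe sets did. Between prepupae and larvae 2 of the 9 changed, wb and Mmp2, where 6.31% of all probe sets did, and between pupae and prepupae 3 did, wb, LanA and Mmp2, where 9.89% did.

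The beta and gamma chains moved less. LanB1 in prepupae at 29 °C read 10.85, 10.72, 10.76 and 10.80 in Ubx wings, against 10.59, 10.49, 10.46 and 10.57 in eGFP wings. The groups did not overlap and LanB1 rose by 0.26 (SE 0.05, adjusted p = 3.9e-04), while the interaction was 0.19 (SE 0.08, adjusted p = 0.12). In larvae and pupae at 29 °C its differences were 0.06 and 0.05, with overlapping groups. LanB2 differed by 0.04, 0.09 and 0.03 in larvae, prepupae and pupae, none of them called, with 95% intervals inside -0.07 to 0.19.

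Collagen IV gave no call between the lines. The prepupal arrays at 29 °C read, for vkg, 9.59, 9.43, 9.52 and 9.64 in Ubx wings, against 9.17, 9.29, 9.16 and 9.32 in eGFP wings. The groups did not overlap, at a difference of 0.31 (SE 0.12, adjusted p = 0.095), and the difference was called when the prepupal arrays were fitted alone (adjusted p = 0.0026). In prepupae at 19 °C, with the transgene off, the vkg groups did not overlap either: 9.33, 9.46, 9.30 and 9.26 in the Ubx line and 9.06, 9.07, 9.18 and 9.20 in the eGFP line, a difference of 0.21 (SE 0.12, adjusted p = 0.53). At 19 °C it was 0.38 in larvae (SE 0.12, adjusted p = 0.19), which was called without eGFP replicate 1 (adjusted p = 0.035) or replicate 2 (adjusted p = 0.048), and 0.23 in pupae (SE 0.12, adjusted p = 0.59). The line difference of vkg was positive in all 6 pairs of groups, and its interaction lay between -0.21 and 0.10.

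Col4a1, the partner of vkg, had the group means most like it, with a Pearson correlation of 0.991 over the 12 groups. Its prepupal values at 29 °C were 9.18, 9.03, 9.16 and 9.10 in Ubx wings, against 8.74, 8.81, 8.77 and 8.86 in eGFP wings, a difference of 0.32 (SE 0.13, adjusted p = 0.093). Its groups did not overlap, and no pair of lines was called for Col4a1 at either temperature. Of 12 haemocyte markers, which mark cells known to make collagen IV, 3 were called higher in Ubx prepupae at 29 °C (NimC1, srp and Pvr) and 3 at 19 °C (NimC1, crq and Pvr). The srp call was lost without every array of the pair of groups except Ubx replicate 3, that of Pvr at 29 °C without Ubx replicate 1 or 4 or eGFP replicate 3, and that of NimC1 at 19 °C without Ubx replicate 2 or eGFP replicate 1. The summed linear level of the 12 was 1515 to 1724 in Ubx prepupae at 29 °C and 1384 to 1442 in eGFP prepupae, and at 19 °C it was 1379 to 1541 in the Ubx line and 1184 to 1300 in the eGFP line. Of these markers eater, He, lz and PPO1 were below the array medians in all prepupal groups. The part of haemocytes in the collagen IV values was not tested.

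**Figure D3:**
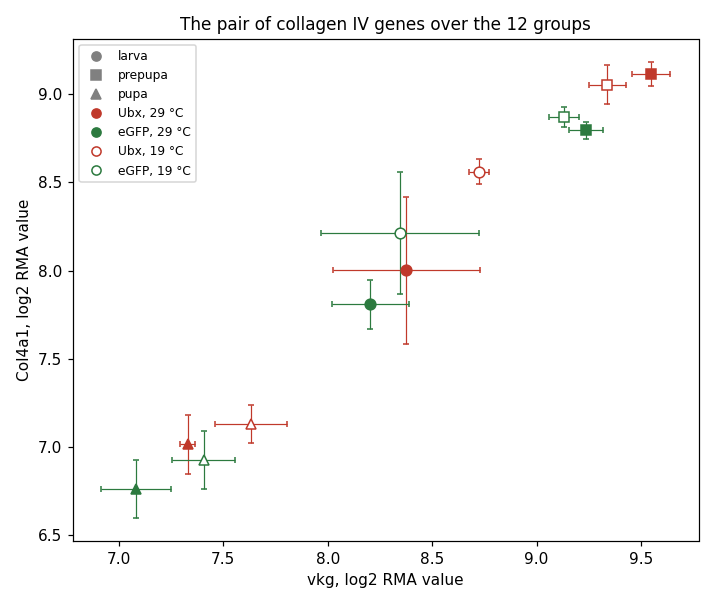
Group means of vkg (horizontal) and Col4a1 (vertical), log2 RMA values with the SD of 4 arrays as bars, Ubx in red and eGFP in green, 29 °C filled and 19 °C open, with a marker shape per stage. The points run along one line from pupae, with vkg between 7.08 and 7.63, through larvae to prepupae, with vkg between 9.13 and 9.55.

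The difference of the metalloprotease gene Mmp2 between the lines changed with the stage. In larvae at 29 °C Mmp2 read 6.80, 7.06, 6.85 and 6.41 in Ubx discs, against 6.16, 6.28, 6.18 and 5.90 in eGFP discs. All Ubx arrays were above all eGFP arrays, and Mmp2 rose by 0.65 (SE 0.12, adjusted p = 3.6e-04), or 1.57-fold. In prepupae at 29 °C it read 6.55, 6.75, 6.85 and 6.82 in Ubx wings, against 6.89, 6.99, 7.08 and 6.86 in eGFP wings. There the Ubx arrays were the lower ones, by the narrowest of margins, and the difference of -0.21 was not called (SE 0.12, adjusted p = 0.30). In pupae at 29 °C Mmp2 read 7.27, 7.47, 7.39 and 7.48 in Ubx wings, against 7.23, 6.77, 7.07 and 7.03 in eGFP wings, a rise of 0.38 (SE 0.12, adjusted p = 0.040).

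The pupal call of Mmp2 was lost without replicate 2, 3 or 4 of the Ubx pupae or replicate 2, 3 or 4 of the eGFP pupae (adjusted p from 0.065 to 0.20), and after centring the arrays on their medians (adjusted p = 0.072). The larval call held without each array in turn. The change of the Mmp2 difference at 29 °C was -0.86 between prepupae and larvae (SE 0.17, adjusted p = 6.2e-04) and 0.59 between pupae and prepupae (SE 0.17, adjusted p = 0.020). That second change was not called once replicate 1 of the Ubx prepupae was left out (adjusted p = 0.055) or replicate 2 of the eGFP pupae (adjusted p = 0.069).

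At 19 °C Mmp2 differed by 0.07 in larvae, 0.31 in prepupae (SE 0.12, adjusted p = 0.21) and 0.20 in pupae. The prepupal groups at 19 °C did not overlap, with 6.24, 5.88, 6.11 and 5.89 in the Ubx line and 5.68, 5.77, 5.61 and 5.82 in the eGFP line. The interaction was 0.58 in larvae (SE 0.17, adjusted p = 0.20), -0.52 in prepupae (SE 0.17, adjusted p = 0.054) and 0.18 in pupae (SE 0.17, adjusted p = 0.74). The larval interaction was called without eGFP replicate 2 of the larvae at 19 °C (adjusted p = 0.026) or Ubx replicate 4 of the larvae at 29 °C (adjusted p = 0.030), and the prepupal one without Ubx replicate 2 or 4 of the prepupae at 19 °C or Ubx replicate 3 of the prepupae at 29 °C (adjusted p from 0.042 to 0.049). The second Mmp2 probe set was dim, with group means between 3.13 and 3.59, and was called in none of these contrasts.

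Left out as a check, the larval control array with the high fat body signal changed no larval call of the 9 genes: without it if differed by -0.25 (adjusted p = 0.011), wb by -0.31 (adjusted p = 0.016) and Mmp2 by 0.67 (adjusted p = 0.0011). The changes between prepupae and larvae were then -0.71 for wb (adjusted p = 8.6e-06) and -0.88 for Mmp2 (adjusted p = 0.0011), and the LanA change between pupae and larvae was 0.82 (adjusted p = 8.5e-07).

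Several markers of the wing epithelium also differed between the lines at 29 °C. Of the 6 measured, vg and nub were lower in Ubx larvae, where zfh2 and bs differed by 0.20 and 0.10 and were not called, 4 of 6 were lower in Ubx prepupae (1 to 3 when any 1 array was left out) and 5 of 6 in Ubx pupae, among them bs, a regulator of wing cell fate and adhesion, by -0.64 (SE 0.05, adjusted p = 1.0e-13). Their summed linear level in pupae at 29 °C was 4432 to 5067 in Ubx wings and 5527 to 6615 in eGFP wings. In prepupae at 29 °C 3 of 6 myoblast and muscle markers were higher in Ubx wings (sns, zfh1 and kirre, of which sns was also called at 19 °C), with a sum of 813 to 883 in Ubx wings and 446 to 482 in eGFP wings, while the defining markers twi, Him and htl were below the array medians in both. Among 4 fat body markers Fbp2 was lower in Ubx larvae and, by -4.52, in Ubx pupae at 29 °C, and by -3.78 in Ubx pupae at 19 °C. Of 4 tracheal markers rib was higher in Ubx pupae, and of 5 neuron and glia markers moody was higher in Ubx larvae. The part of these cell types in the values of the 9 genes was not tested.

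The genes that work beside the 9 showed few shared changes. Of 17 genes listed for the integrin adhesion complex, which links the receptor to actin, 16 were measured. None was called in larvae at 29 °C, at a median difference of -0.02. In prepupae Vinc was higher and Ilk, parvin, Pax and Fit2 were lower, with sizes from 0.14 to 0.21. Those falls were slight and rested on single arrays: without eGFP replicate 1 all 4 lost their calls, without Ubx replicate 3 or 4 Ilk and Fit2 did, and without Ubx replicate 1 or 2 or eGFP replicate 2 Pax did. After centring the arrays none of the 4 was called. Pax was also lower in the Ubx line at 19 °C, in prepupae by -0.48 (adjusted p = 1.4e-07). In pupae Pax, by 0.19 and in a call lost without Ubx replicate 1, 3 or 4 or eGFP replicate 2 or 3, and Zasp52 were higher. Zasp52, which encodes a scaffold protein of muscle and integrin attachment sites, rose by 0.48 (SE 0.06, adjusted p = 3.5e-08) with an interaction of 0.40 (adjusted p = 0.0015).

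Of the 4 other integrin chain genes, ItgaPS4 was lower in Ubx prepupae and pupae, at a level below the array medians, and the pupal call was lost without eGFP replicate 3 (adjusted p = 0.091). Itgbn was below the array medians as well, and scb and ItgaPS5 were not called. Among 3 other matrix receptors, Dg, which encodes the laminin receptor dystroglycan, was higher at all 3 stages at 29 °C. In larvae at 29 °C Dg read 6.73, 6.82, 7.05 and 6.95 in Ubx discs, against 6.44, 6.46, 6.52 and 6.60 in eGFP discs, a rise of 0.38 (SE 0.06, adjusted p = 3.7e-05) with an interaction of 0.40 (adjusted p = 0.018). That interaction was not called without replicate 3 of the Ubx or 1 of the eGFP larvae at 29 °C, or replicate 2 or 4 of the Ubx larvae at 19 °C (adjusted p from 0.051 to 0.081), or in the larval arrays alone (adjusted p = 0.18). In prepupae Dg rose by 0.37 at 29 °C and also by 0.39 at 19 °C (adjusted p = 2.5e-05), so the prepupal difference was present with the transgene off. In pupae at 29 °C Dg rose by 0.34 and the syndecan gene Sdc fell by 0.24 (adjusted p = 0.0018), with overlapping Sdc groups. Neither pupal interaction was called, at 0.21 for Dg (adjusted p = 0.25) and -0.19 for Sdc (adjusted p = 0.23).

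Of 15 other genes for basement membrane proteins and the enzymes that make them, 14 were measured, and their median difference at 29 °C was 0.07, 0.08 and 0.14 in larvae, prepupae and pupae. None was called in larvae, where Ndg, Loxl2 and mspo read below the array medians. In prepupae PH4alphaEFB, a prolyl hydroxylase of collagen, was higher by 0.15 (adjusted p = 0.019), but not when replicate 2 or 4 of either line was left out. In pupae the same gene was lower by -0.28 (SE 0.05, adjusted p = 2.1e-05), and Ndg (nidogen), Ppn (papilin) and Mp (multiplexin) were higher by 0.31 to 0.35. The Mp call was lost without Ubx replicate 1 or 2 or eGFP replicate 2 or 3. The pupal interaction was called for PH4alphaEFB, at -0.34 (limma adjusted p = 8.5e-04). None of Ndg, Ppn and Mp had a pupal interaction call in the direction of its rise.

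Surface and matrix proteases and their inhibitors, 10 genes all measured, held the largest single changes of these 5 lists. In prepupae at 29 °C Sb, the transmembrane serine protease Stubble needed for appendage eversion, read 8.28, 8.67, 8.20 and 8.21 in Ubx wings, against 7.44, 7.25, 7.10 and 7.15 in eGFP wings. Every Ubx array was above every eGFP array, and Sb rose by 1.11 (SE 0.10, adjusted p = 3.6e-11), with an interaction of 1.05 (adjusted p = 1.8e-06). The ADAM protease gene kuz rose by 0.36 in prepupae (adjusted p = 0.0079), but not without replicate 1 of the Ubx line (adjusted p = 0.056). In pupae at 29 °C the secreted matrix protease gene AdamTS-A read 9.63, 9.53, 9.51 and 9.61 in Ubx wings, against 8.16, 8.47, 8.20 and 8.32 in eGFP wings. It rose by 1.28 (SE 0.13, adjusted p = 3.0e-10) with an interaction of 1.06 (adjusted p = 1.2e-04), while AdamTS-B fell by 0.72 (SE 0.11, adjusted p = 1.9e-06).

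Timp, the inhibitor of both fly metalloproteases, was higher in Ubx pupae at 29 °C. It read 6.63, 6.29, 6.01 and 6.07 in Ubx wings, against 5.83, 5.73, 5.42 and 5.84 in eGFP wings, a rise of 0.55 (SE 0.15, adjusted p = 0.013). Leaving out replicate 1 of the Ubx pupae (adjusted p = 0.10) or replicate 3 of the eGFP pupae (adjusted p = 0.082) ended the call, as did fitting the pupal arrays alone (adjusted p = 0.096). In larvae and prepupae at 29 °C Timp differed by 0.03 and -0.01. In pupae at 19 °C it averaged 5.08 in the Ubx line and 4.93 in the eGFP line. The pupal interaction of Timp was not called in the direction of its rise.

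**Figure D4:**
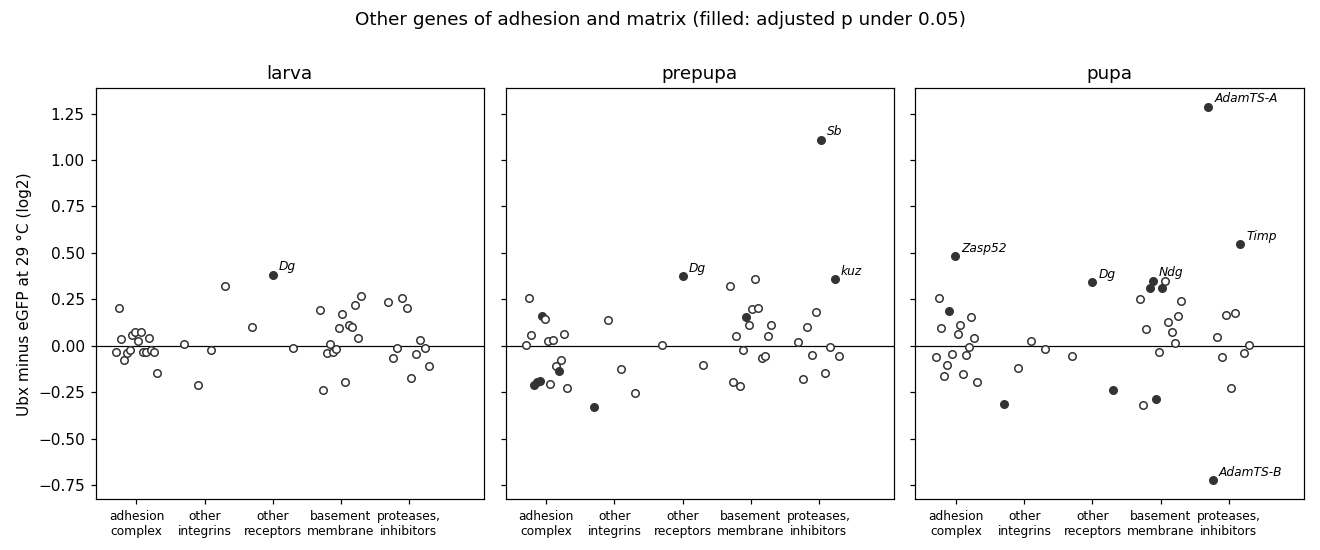
Ubx minus eGFP at 29 °C (log2) for each measured gene of 5 lists of adhesion and matrix genes, by stage. Filled points passed an adjusted p of 0.05, and called genes at or past 0.34 in size are named. Sb reaches 1.11 in prepupae, AdamTS-A reaches 1.28 and AdamTS-B -0.72 in pupae, and in larvae Dg is the 1 filled point.

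Across stages, the levels in the control line were read with a further limit. The 8 arrays that share a stage and a temperature appear to have been normalised by themselves, so stage or temperature and set cannot be told apart, and a call here also required at least a 2-fold difference. The median of all probe sets differed by -0.26 between prepupae and larvae and by -0.32 between pupae and prepupae at 19 °C, and by 0.01 and -0.26 at 29 °C. Values after centring each array on its median are therefore given beside the deposited ones. The interactions and the changes of the line difference between stages, given above, also compare such sets. There a shift common to a set cancels, but a different scale of a set would not.

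Of the laminin genes, the alpha chain genes changed in opposite directions between larvae and prepupae. In eGFP prepupae wb was higher than in eGFP larvae by 2.25 at 19 °C (2.28 after centring) and by 2.12 at 29 °C (1.84 after centring). LanA was lower by -1.99 at 19 °C (-1.96 after centring) and by -2.88 at 29 °C (-3.16 after centring). At 19 °C LanA read 9.73, 9.75, 9.79 and 9.80 in eGFP prepupae, against 11.77, 11.86, 11.66 and 11.76 in eGFP larvae. LanB1 and LanB2 were lower in prepupae too, by -0.47 and -0.52 at 19 °C and by -0.46 and -0.54 at 29 °C, under 2-fold. With the 3 wb probe sets averaged, its change at 29 °C was 0.88, under 2-fold. In all, 2 of the 9 genes were called between prepupae and larvae at 19 °C, where 28.0% of all probe sets were, and 3 at 29 °C, where 23.5% were.

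The third call at 29 °C was vkg, which was higher in eGFP prepupae than in larvae by 1.03, a value under 2-fold after centring (0.75) and without eGFP replicate 3 of the larvae (0.95). From prepupae to pupae vkg was lower by -1.73 at 19 °C (-1.31 after centring) and by -2.15 at 29 °C (-1.77 after centring), and vkg was the 1 call among the 9 genes at 29 °C, where 16.8% of all probe sets were called. At 19 °C 5 of the 9 were called between pupae and prepupae, where 18.5% of all probe sets were. Besides vkg these were mys, lower by -1.20 (-0.78 after centring, under 2-fold), wb, lower by -1.58 (-1.17 after centring), LanA, lower by -1.20 (-0.79 after centring, under 2-fold), and Mmp2, higher by 1.29 (1.70 after centring). The integrin chain genes mew and if differed by less than 2-fold between successive stages at both temperatures, through the deposited values.

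Temperature itself, which goes with other hours after puparium formation, gave 1 call among the 9 genes in the eGFP line. In prepupae Mmp2 read 6.89, 6.99, 7.08 and 6.86 at 29 °C, against 5.68, 5.77, 5.61 and 5.82 at 19 °C, a difference of 1.23 (SE 0.12, adjusted p = 8.5e-12, 1.10 after centring). With both Mmp2 probe sets averaged this was 0.70, under 2-fold. LanA was lower at 29 °C by -0.96 there (-1.09 after centring, past 2-fold). The 1 call of 9 in prepupae stood beside 6.24% of all probe sets. None of the 9 was called in larvae or pupae, where 1.01% and 1.57% of all probe sets were, and there the 2-fold rule decided. By adjusted p alone, 7 of the 9 were lower at 29 °C in larvae, and in pupae 6 were higher and 1 was lower. The share of all probe sets under that rule was not counted, and their median differed by -0.21 in larvae and 0.15 in pupae. After centring, LanB1 (-0.12, limma adjusted p = 0.11) and LanB2 (0.04) no longer passed in larvae. In pupae if, LanB1, LanB2 and mys no longer passed after centring (adjusted p from 0.078 to 0.84), while LanA and mew stayed higher and vkg lower.

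Over the 12 groups the genes differed in how far they ranged. The range from the lowest to the highest group mean was 3.23 for LanA and 3.14 for wb, 2.46 for vkg, 1.68 for Mmp2, 1.20 for mys, 1.15 for if and 1.02 for mew, and 0.77 and 0.69 for LanB1 and LanB2. For LanA the 4 larval groups, with means from 11.68 to 11.79, stood above all others without overlap, while the remaining groups ran from 9.88 in Ubx pupae at 29 °C to 8.56 in eGFP pupae at 19 °C. For wb both prepupal groups at 19 °C were highest, at 11.45 in the Ubx line and 11.55 in the eGFP line, and these neighbours overlapped. At 29 °C the eGFP prepupae followed at 10.85, with no overlap with the group above or below, and Ubx prepupae at 9.83 came after the 3 pupal groups other than Ubx at 29 °C. For if the highest mean was 10.44 in eGFP prepupae at 29 °C and the lowest 9.30 in Ubx larvae at 29 °C, and neither overlapped its neighbour in the order.

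For vkg the 4 prepupal groups were highest, the 4 larval groups next and the 4 pupal groups lowest, with no overlap between these 3 blocks and overlap between all neighbours inside them. The same 4 prepupal groups were highest for mys, from 11.27 to 10.99, and the 4 pupal groups lowest, from 10.25 to 10.07. The lowest prepupal group of mys, eGFP at 29 °C, overlapped the eGFP larvae at 19 °C, at 10.92. No neighbours in the order of mew were free of overlap. For Mmp2 the pupal groups were highest, from 7.40 in the Ubx line at 29 °C to 7.01 in the eGFP line at 19 °C. The last of them overlapped the eGFP prepupae at 29 °C, at 6.95. Prepupae at 19 °C were lowest, at 6.03 in the Ubx line and 5.72 in the eGFP line. These did not overlap each other, but the Ubx prepupae at 19 °C overlapped the eGFP larvae at 29 °C, at 6.13. LanB1 was highest in eGFP larvae at 19 °C, at 11.30, and LanB2 in Ubx larvae at 19 °C, at 11.41. Both were lowest in eGFP prepupae at 29 °C, LanB1 at 10.53 and LanB2 at 10.72.

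Correlations of the 12 group means describe which genes ran alike. They carry no test, since the groups share stages and sets of arrays. LanA, LanB1 and LanB2 ran together, at 0.91 for LanA with LanB1, 0.83 for LanB1 with LanB2 and 0.81 for LanA with LanB2. Against them ran wb, at -0.63 with LanA, -0.50 with LanB1 and -0.76 with LanB2. The pair mys and vkg had 0.92, and mew had 0.83 with LanB2. Among 5555 candidate probe sets of named genes, the genes most like each member were siz for mys (0.985), CG6231 for mew (0.875), lap for if (0.868), Osi24 for wb (0.973), mal for LanA (0.984), unk for LanB1 (0.953), Shmt for LanB2 (0.986) and CG1299 for Mmp2 (0.943). For wb the next was f (0.958), the actin bundling gene forked, and for vkg, after Col4a1, they were Ptp4E (0.983) and Tep3 (0.981).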

How the data were processed

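The authors deposited log2 values made with RMA, per the submitters' processing notes. Sources used here give neither a version nor the base of the logarithm, which was read from the range of the values. Sorted values of the 8 arrays sharing stage and temperature lay close (largest mean distance 0.061) and those of other arrays farther (smallest 0.103), so each such set appears to have been normalised alone. Per the labels' protocols, 2 µg of RNA per sample was labelled.

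Array controls, 183 of the 18952 probe sets, were not tested. A limma 3.58.1 model (R 4.3.3, lmFit and eBayes, two-sided) with 1 mean per group was fitted to all 48 arrays, with 36 residual and 5.16 prior degrees of freedom, and Benjamini-Hochberg adjustment ran over all tested probe sets, contrast by contrast. It was tested on simulated data with independent errors, and with changes added to the Ubx groups at 29 °C alone. That simulation did not cover normalisation by set or differences between stages. The number of arrays limits the precision. Probe sets were named from the platform annotation with symbols updated through RefSeq: 13647 had 1 symbol, 402 several and 4720 none. The genes, lists and tests were chosen with earlier results of these data known. All 9 measured genes were named, and of each other list up to 4 genes whose call at 29 °C and interaction call had one direction. Further list genes were named after their values were seen. Likeness used probe sets whose group means had an SD of at least 0.5. Alternatives were quantile normalisation over all arrays, centring on array medians, a filter at a group mean above 5, the mean over a gene's probe sets, a replicate block, the stages compared alone, and leaving out each array. Replicate numbers are shared by the lines, but of 24 pairs of same-numbered arrays 7 had deviations correlating above 0.1, so the numbers were not taken to pair them. Python 3.11.15, pandas 2.3.3 and matplotlib 3.10.9 drew the figures. No sequences are printed and Ubx itself is not analysed here.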

Additional observations from a re-analysis of the deposited data

Results flagged for a closer look

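Among 108 sets of 4 arrays (9 genes in 12 groups), 2 held an array far from the rest, where chance gives about 1 in 20 sets. In Ubx larvae at 29 °C replicate 2 read 10.06 for mew, and the others 10.18 to 10.21. In Ubx pupae at 19 °C replicate 1 read 10.30 for mew, and the others 10.10 to 10.11.

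The Ubx minus eGFP difference changed with temperature for wb in prepupae (interaction -0.92, limma adjusted p = 6.0e-09) and in pupae (-0.60, adjusted p = 7.6e-05), for if in pupae (-0.32, adjusted p = 0.0089) and for LanA in pupae (0.71, adjusted p = 4.4e-06). At 29 °C it changed between prepupae and larvae for wb (-0.70, adjusted p = 3.1e-06) and Mmp2 (-0.86, adjusted p = 6.2e-04). Between pupae and prepupae it changed for wb (0.45, adjusted p = 0.0019), LanA (0.64, adjusted p = 1.3e-05) and Mmp2 (0.59, adjusted p = 0.020), and between pupae and larvae for LanA (0.81, adjusted p = 2.1e-07).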

How the results depend on the processing

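Of 171 results of single genes (9 genes in 19 contrasts), 165 kept their direction and their side of the threshold under quantile normalisation over all arrays, 165 after centring, 169 under the filter, 165 with probe sets averaged, 170 with the replicate block and 168 with the stages compared alone, and no called result turned its direction. Of 1800 values with 1 array left out, 1780 kept theirs. Counts of called genes that moved by over 1.5 times were these. In prepupae at 19 °C 1 gene was called under quantile normalisation (Mmp2), against 0. The prepupal interaction gave 2 genes in place of 1, with Mmp2 added, under quantile normalisation, the filter, the replicate block and the stages alone. The eGFP line gave 3 in place of 5 between pupae and prepupae at 19 °C after centring, 5 in place of 3 between prepupae and larvae at 29 °C under quantile normalisation, and, between temperatures in prepupae, 2 after centring and 0 with probe sets averaged, in place of 1. Smaller moves were 2 in place of 3 in larvae at 29 °C with probe sets averaged, 5 in place of 4 in prepupae at 29 °C with the stages alone, 3 in place of 4 in pupae at 29 °C after centring, 2 in place of 3 for the pupal interaction with the stages alone, and 4 in place of 3 for the change between pupae and prepupae after centring or under the filter. In the eGFP line they were 3 in place of 2 between prepupae and larvae at 19 °C under quantile normalisation, 4 in place of 5 between pupae and prepupae at 19 °C under quantile normalisation or with probe sets averaged, and 2 in place of 3 between prepupae and larvae at 29 °C after centring or with probe sets averaged. With 1 array left out, the counts ran from 3 to 4 in pupae at 29 °C, from 2 to 4 for the change between pupae and prepupae, from 2 to 3 between prepupae and larvae of the eGFP line at either temperature, from 0 to 1 in larvae at 19 °C, from 0 to 1 for the larval interaction and from 1 to 2 for the prepupal interaction. The calls over all probe sets then ran from 1294 to 1812 in pupae at 29 °C and from 1424 to 2231 for that change. Between prepupae and larvae of the eGFP line they ran from 5233 to 5312 at 19 °C and from 4372 to 4424 at 29 °C. They ran from 215 to 279 in larvae at 19 °C, from 61 to 125 for the larval interaction and from 1125 to 1515 for the prepupal one. Over all probe sets, the stages compared alone gave 212 calls in place of 374 in pupae at 19 °C, 948 in place of 1443 for the prepupal interaction and 398 in place of 630 for the pupal one, and quantile normalisation gave 177 in place of 294 between temperatures in eGFP pupae. In prepupae at 29 °C the stages alone gave 2136 in place of 2672, beside the 5 genes in place of 4. The causes were not tested. The replicate block changed no other call of the 9 genes. Deviations of same-numbered arrays of the lines correlated between -0.15 and 0.36 over 24 pairs (median 0.03), and in 6 an array correlated best with its own number. With 4 arrays a group, differences of dim probe sets near the array medians limit what can be read.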

Other observations

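The matrix proteases and Timp had marked profiles over the stages in both lines. At 29 °C AdamTS-A averaged 9.83, 3.75 and 9.57 in larvae, prepupae and pupae of the Ubx line, and 9.59, 3.73 and 8.29 in those of the eGFP line. At 19 °C it averaged 9.28, 3.86 and 7.48 in the Ubx line and 9.57, 3.82 and 7.25 in the eGFP line, so the prepupal level lay below the array medians at both temperatures. At 29 °C its line difference was called in pupae and not in larvae or prepupae. Sb averaged 8.81, 8.34 and 7.47 in larvae, prepupae and pupae of the Ubx line at 29 °C, and 8.99, 7.23 and 7.69 in those of the eGFP line. At 19 °C the prepupal means of Sb were 8.31 in the Ubx line and 8.25 in the eGFP line. Timp averaged 7.50, 7.07 and 6.25 in larvae, prepupae and pupae of the Ubx line at 29 °C, and 7.47, 7.07 and 5.70 in those of the eGFP line. These profiles cross sets of arrays and were not tested between stages.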
